A study of Homo sapiens and Mus musculus with 47 samples.

Results

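The mitochondrially encoded genes are the 37 genes that the deposited count tables place on chrM, with symbols that begin MT- in human and mt- in mouse. They were found by chromosome alone, 37 of 57820 genes in the human tables and 37 of 55401 in the mouse tables. In either species they comprise 13 mRNA genes, 2 rRNA genes and 22 tRNA genes. The mRNAs encode subunits of 4 respiratory complexes, with 7 in complex I, 1 in complex III, 3 in complex IV and 2 in complex V. On the light strand lie 9 genes, MT-ND6 and 8 tRNA genes, and on the heavy strand the other 28, which include 12 mRNA genes and both rRNA genes.

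Mitochondrial DNA is a small circle, packed by the protein TFAM and not by histones. Each strand is transcribed by the polymerase POLRMT as a long RNA, from which the mRNAs and rRNAs are released mainly by cutting out the tRNAs that lie between them. Most of the mRNAs and the rRNAs then receive short poly(A) tails, and LRPPRC with SLIRP binds and stabilizes the mRNAs of the heavy strand. MT-ND6, a membrane subunit of complex I, is the one mRNA read from the light strand, and much of the other RNA from that strand is antisense to heavy-strand genes and is degraded.

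Chrom-seq marks RNA near a histone modification in living cells. A reader domain carries an array of peptide tags that bring in APEX2, a peroxidase, which attaches biotin-aniline to RNA close by, and the biotinylated RNA is captured. The TAF3 reader, which binds H3K4me3, was set against cells with a reader-free tag array in HCT116, a human colorectal cancer line, in the mouse fibroblast line NIH3T3 and in Neuro-2a, a mouse neuroblastoma line, with 3 libraries in each of the 6 groups. RNA-seq of HEK293T (human embryonic kidney) cells compared CBX7, a reader of H3K27me3, with a group labelled control, 3 libraries each. The study calls the latter cells untreated and the former transfected with the reader. It presents that comparison as one of both the Chrom-seq components and biotin-aniline. The reader, the other components, transfection and any biotin-aniline therefore cannot be told apart there. A second RNA-seq table of HEK293T cells held 3 libraries with a negative control (NC) antisense oligonucleotide (ASO), 3 with an ASO to SETD5-AS1, 2 to LINC00641 and 3 to LINC00662, all long noncoding RNAs. The labels repeat one protocol for all samples, with the tag array and APEX2 fusions expressed for 48 h, then 30 min in 500 µM biotin-aniline, then 1 min with 1 mM H2O2. Whether all of it applies to the CBX7 RNA-seq libraries, or any of it to the other RNA-seq samples, is not settled by the sources used here. No label says that replicates were separate cultures, and the study calls replicates independent without saying what was repeated, so p-values measure only the spread between these libraries.

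The 35 libraries held 8258859 to 17558305 counts, and the share of counts in the 37 genes ran from 2.18% to 14.1%. Of 6 marker genes fixed for each line, all 6 had a mean of at least 1 CPM (counts scaled to a common library size) in NIH3T3, Neuro-2a and both HEK293T tables, and 5 did in HCT116, where VIL1 did not. This floor does not separate the lines. Of the HCT116 markers 5 also reached it in both HEK293T tables, and of the HEK293T markers 4 did in each of the other lines. Among the members, Neuro-2a TAF3 replicate 1 and NIH3T3 TAF3 replicate 1 stood apart from the libraries of their group, and results that rest on them are given with and without them. SETD5-AS1 ASO replicate 3 differed from its group as well, with 385 mitochondrial tRNA counts against 745 and 712. Single member values for that ASO are given with it included. Libraries were made after selection for poly(A) tails, and tRNAs are short and lack such tails. At least 1 count was found for 35 of 37 members in HCT116, 35 in the CBX7 table, 36 in the ASO table, 26 in NIH3T3 and 30 in Neuro-2a. MT-TI, the isoleucine tRNA, had no count in either HEK293T table.

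Members that differ between groups differ also in sequence. The first 80 bases of the coding strand of MT-ND6 (hg19, chrM:14594-14673, minus strand) are set below against those of MT-ND1 (chrM:3307-3386, plus strand) and MT-CO1 (chrM:5904-5983, plus strand), the first genes of complexes I and IV on the heavy strand, with each G in capitals. They hold 22, 9 and 15 guanosines.
MT-ND6: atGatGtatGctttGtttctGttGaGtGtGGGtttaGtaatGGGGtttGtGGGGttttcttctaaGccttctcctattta
MT-ND1: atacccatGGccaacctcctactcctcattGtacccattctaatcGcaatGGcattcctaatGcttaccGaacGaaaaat
MT-CO1: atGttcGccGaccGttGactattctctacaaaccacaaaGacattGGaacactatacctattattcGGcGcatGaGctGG
Over the whole genes, human MT-ND6 was 35.6% G and 7.05% C, whereas the 12 heavy-strand mRNAs were 6.28% to 16.2% G and 29.5% to 35.98% C. In mouse, mt-Nd6 was 28.1% G, against 5.88% to 16.1% in the heavy-strand mRNAs.

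The light-strand tRNAs on which the HEK293T results turn are shown with the anticodon in capitals. They carry glutamine (MT-TQ, hg19 chrM:4329-4400), alanine (MT-TA, chrM:5587-5655), serine (MT-TS1, chrM:7446-7514), glutamate (MT-TE, chrM:14674-14742) and proline (MT-TP, chrM:15956-16023), all on the minus strand.
MT-TQ: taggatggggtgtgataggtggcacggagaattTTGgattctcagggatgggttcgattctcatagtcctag
MT-TA: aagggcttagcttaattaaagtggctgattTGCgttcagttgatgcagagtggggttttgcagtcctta
MT-TS1: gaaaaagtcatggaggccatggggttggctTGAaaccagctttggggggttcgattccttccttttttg
MT-TE: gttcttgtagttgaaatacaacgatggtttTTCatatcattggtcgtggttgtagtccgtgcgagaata
MT-TP: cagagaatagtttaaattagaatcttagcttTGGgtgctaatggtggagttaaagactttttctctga
MT-TE lies next to MT-ND6 on the same strand. Whether the counting used strand was not given in the sources used here, so reads of a member and of RNA antisense to it cannot be told apart, and reads counted at a tRNA gene may come from uncut precursors that span it.

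Levels per length were compared first, as CPM per kilobase, within each control group. In HCT116 control libraries MT-ATP6, a subunit of complex V, stood highest at 26702 ± 508 (SD, n = 3), followed by MT-CO1 at 19132 ± 592 and MT-ND4 at 16058 ± 466. MT-ND3 of complex I stood lowest of the 15 mRNAs and rRNAs, at 493 ± 14.2. MT-RNR1, the rRNA of the small mitochondrial ribosome subunit, ranked next to last, at 1233 ± 90.2 against 9207 ± 405 for MT-RNR2 of the large subunit. Neighbours in this order whose libraries overlapped were MT-CO2 and MT-CO3, MT-ND4L and MT-RNR2, and each next pair along MT-ND5, MT-ND2, MT-ND6 and MT-ND1. All other neighbours were apart in every library.

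In HEK293T control libraries of the CBX7 table, MT-RNR2 had the highest mean at 5636 ± 535 (SD, n = 3), with libraries that overlapped those of MT-CO1 at 4916 ± 121, followed by MT-CO2 at 3359 ± 119. MT-ND6 had the next mean at 3133 ± 135, with libraries that overlapped those of MT-ATP6 at 2886 ± 162, while MT-ND1, MT-ND2, MT-ND5 and MT-CYB lay between 527 and 912. In the NC ASO libraries of the other HEK293T table MT-ND6 ranked second at 6177 ± 731, below MT-RNR2 at 7824 ± 616 and above MT-CO1 at 3041 ± 203. The libraries of MT-ND6 did not overlap with those of either neighbour there. The tables were scaled separately and differ in treatment, so these levels are given side by side only.

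In mouse the order was another one. mt-Rnr1 stood highest, at 11093 ± 1266 in NIH3T3 and 15528 ± 377 in Neuro-2a (SD, n = 3 each), and mt-Rnr2 reached 256 ± 15.3 and 1644 ± 134. mt-Nd6 reached 3197 ± 158 in NIH3T3 and 4402 ± 176 in Neuro-2a, where its libraries overlapped with those of mt-Cytb at 4312 ± 283. The remaining 6 mRNAs, mt-Co2, mt-Atp8, mt-Atp6, mt-Co3, mt-Nd3 and mt-Nd4l, lay between 0.220 and 32.0 in NIH3T3 and between 0.245 and 19.5 in Neuro-2a. The other 7 mRNAs lay between 2033 and 7023 and between 990.5 and 4402. The medians of these groups of mRNAs differed by 331-fold in NIH3T3 and 300-fold in Neuro-2a, whereas for the same genes the ratio was 0.572 in HCT116 and 1.10 in HEK293T control libraries.

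**Figure D1:**
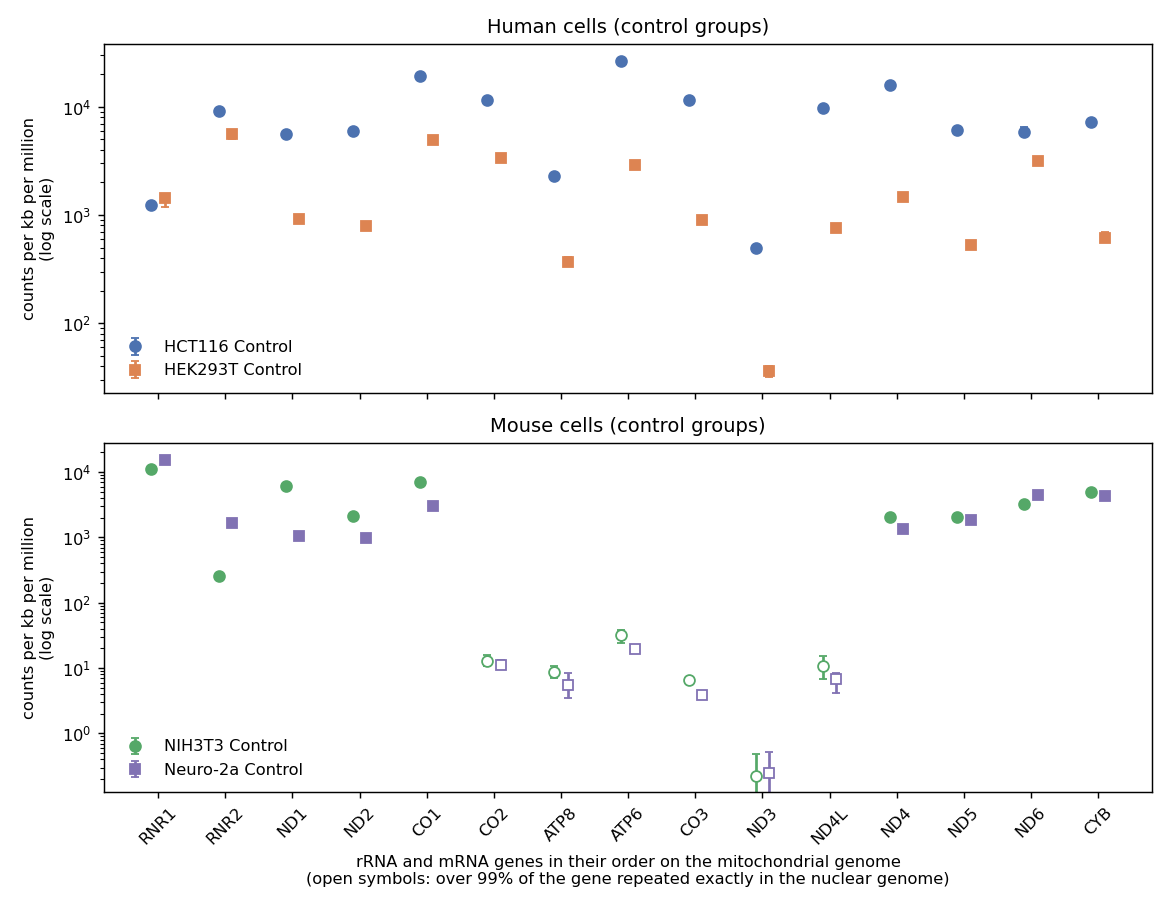
CPM per kilobase (vertical axis, log scale) of the 15 rRNA and mRNA genes in chrM order (horizontal axis) in the control groups of 4 lines; points are means of 3 libraries and bars span the lowest to the highest library. The 6 open symbols in mouse, genes repeated almost whole in the nuclear genome, lie between 0.220 and 32.0, below all filled mouse symbols.

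Those 6 mouse genes lie in a stretch that chromosome 1 repeats. BLAST of the mm10 mitochondrial genome against the nuclear genome placed chrM:6390-11042 at chr1:24611535-24616188 on the opposite strand, with 99.9% identity over 4654 aligned bases, and 11 members lie whole inside it. The aligned sequences differed by the substitutions A6393T and T9461C (positions on chrM, its base first) and by 1 inserted base. The T9461C site lies in mt-Nd3, a subunit of complex I. It is shown here for mt-Nd3 (mm10 chrM:9426-9496) and for the chromosome 1 copy (chr1:24613082-24613152, minus strand), with the base that differs in capitals, which is T36C counted from the left end of the stretch.
mt-Nd3: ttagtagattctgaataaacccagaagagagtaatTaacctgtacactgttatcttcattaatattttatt
copy of mt-Nd3: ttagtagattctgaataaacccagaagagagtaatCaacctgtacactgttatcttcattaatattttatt
The 11 copied members held 0.0420% to 0.146% of chrM counts in the mouse libraries, and the 7 annotated genes on the copy, Gm28437 and Gm10925 among them, held 249 to 1301 counts per library. Human chromosome 1 carries a copy as well (hg19 chr1:564461-570304), of 98.5% identity over 5846 aligned bases, and its 16 whole members held 28.7% to 44.9% of chrM counts in the human libraries. How the counting treated reads that match several places was not given in the sources used here. The mouse values of mt-Co2, mt-Atp8, mt-Atp6, mt-Co3, mt-Nd3 and mt-Nd4l are therefore uncertain as levels, and whether shared reads set them was not tested. The same limit holds for the human light-strand tRNAs MT-TQ, MT-TA and MT-TS1, which lie within the chromosome 1 copy. Each is repeated exactly over 100% of its length in the nuclear genome, whereas MT-TE and MT-TP lie in no exact repeat of at least 100 bases. MT-TN and MT-TK are also repeated over 100% of their length. Such repeats cover part of several human mRNAs and rRNAs, from 25.6% of MT-ATP8 to 58.2% of MT-CO1. Between these lie MT-CO3, MT-ND1, MT-RNR1, MT-CO2, MT-ND2 and MT-ATP6. In mouse they cover 65.8% of mt-Nd4, 51.5% of mt-Co1, 12.4% of mt-Nd2 and 7.40% of mt-Rnr2. Whether shared reads enter the values of any of these members was not tested.

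Within human chrM, MT-ATP8 and MT-ATP6 of complex V share 46 bases, shown in capitals (hg19 chrM:8512-8587, plus strand), and 9 human members in all overlap another member.
MT-ATP8/MT-ATP6: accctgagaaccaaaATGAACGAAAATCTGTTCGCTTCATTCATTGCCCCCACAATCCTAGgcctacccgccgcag
A read in the shared stretch cannot be given to one of them by position alone, so their values are not independent.

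The share of all counts in the 37 genes was compared between groups. In HCT116 it was 13.7%, 14.1% and 14.1% in the control libraries and 12.1%, 13.1% and 11.7% with TAF3, so all 3 TAF3 libraries lay lower (mean 13.99 ± 0.235% against 12.3 ± 0.733%, SD, n = 3). The log2 ratio was -0.19 (exact two-sided permutation test, p = 0.1, the smallest p that 3 against 3 libraries allow). In NIH3T3 the control libraries gave 4.05%, 4.25% and 4.81% and the TAF3 libraries 4.15%, 3.79% and 3.59%. These groups overlapped (log2 ratio -0.19, exact permutation p = 0.2). In Neuro-2a the control libraries gave 3.80%, 3.62% and 3.58% and the TAF3 libraries 2.86%, 3.40% and 3.44%, with no overlap (log2 ratio -0.19, exact permutation p = 0.1). Without TAF3 replicate 1, the lowest, that log2 ratio was -0.10.

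In HEK293T RNA-seq the share was 2.87%, 3.07% and 3.11% in control libraries and 2.67%, 2.57% and 2.59% with CBX7 (log2 ratio -0.21, exact permutation p = 0.1). The NC ASO libraries gave 3.05%, 3.19% and 3.48%. The SETD5-AS1 ASO libraries gave 2.62%, 2.34% and 2.93%, those of LINC00641 2.27% and 2.18%, and those of LINC00662 2.69%, 2.58% and 2.65%, so no library of these groups reached the lowest NC ASO library. The log2 ratios were -0.30, -0.54 and -0.29, with exact permutation p = 0.1, 0.2 and 0.1, each the smallest p its design allows. Counted without the rRNA genes, the log2 ratios for SETD5-AS1 and LINC00662 were 0.0027 and 0.040 and that for LINC00641 was -0.23. The 3 ASO comparisons share their control libraries. In all these bulk libraries, fewer transcripts per cell and fewer cells that carry them cannot be told apart.

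**Figure D2:**
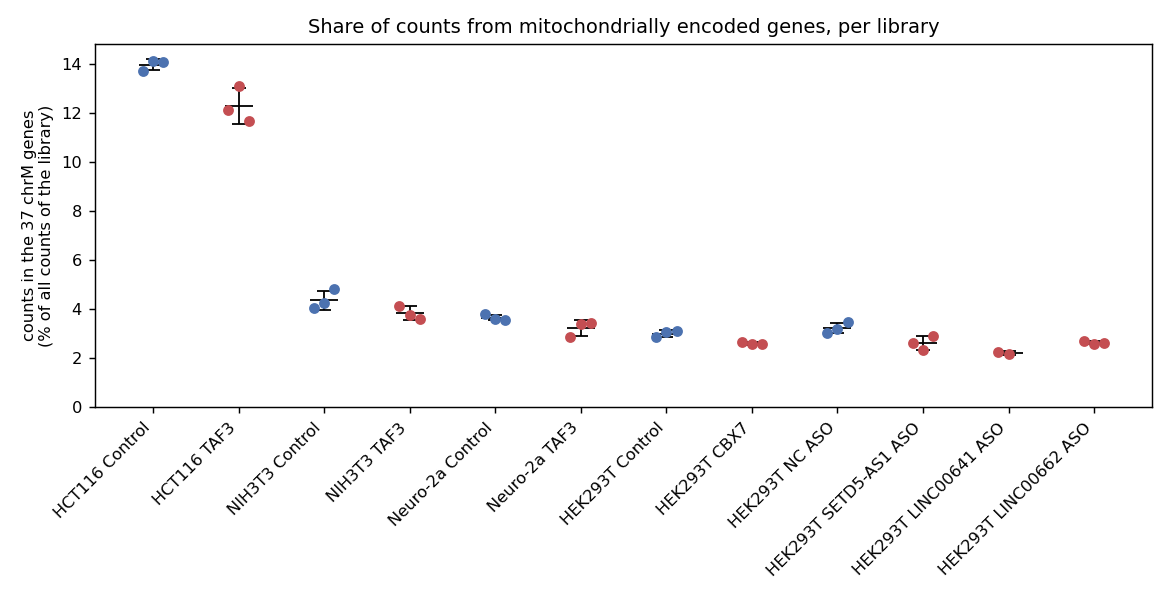
Percent of all counts that lie in the 37 chrM genes (vertical axis) for each of 35 libraries in 12 groups (horizontal axis), control groups in blue and treated groups in red; long bars are means and whiskers the SD. HCT116 lies between 11.7% and 14.1%, and the other lines lie between 2.18% and 4.81%. HEK293T libraries are RNA-seq and the others Chrom-seq, so line and assay cannot be told apart there. The 11 mouse members copied on chromosome 1 held 0.0420% to 0.146% of chrM counts. The 16 copied human members held 28.7% to 44.9%, so shares are not like measures across species.

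In HCT116, TAF3 libraries held more rRNA and MT-ND6 and less of most heavy-strand mRNAs than control libraries. Of 30 members that passed the filter on low counts, 5 were called higher (edgeR's quasi-likelihood test, adjusted p under 0.05, with 0.75 as the smallest log2 fold change) and 0 lower, where 3.34% of all 18731 genes tested were called higher and 3.28% lower, 6.62% in all. By adjusted p alone 10 members rose and 10 fell, against 17.9% and 17% of all genes, 34.9% in all. Below, rose and fell refer to this adjusted p, and called to both criteria. How often groups do not overlap over all genes was not computed. Statements that a member's groups did not overlap therefore only describe its libraries. The median log2 fold change of the tested members was 0.16, and that of all genes was -0.0067. The 7 members under the filter were all tRNAs.

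MT-RNR1 stood at 1079, 1212 and 1236 CPM in the HCT116 control libraries and at 1886, 1856 and 1755 with TAF3, without overlap, a log2 fold change of 0.64 ± 0.051 (SE, adjusted p = 1.22e-13). MT-RNR2 stood at 13740, 14402 and 14886 CPM and at 16780, 15830 and 15929, a log2 fold change of 0.17 ± 0.044 (adjusted p = 0.00152). Both rRNAs of the mitochondrial ribosome were thus higher in every TAF3 library than in any control library. MT-ND6 stood at 2938, 2896 and 3354 CPM and at 3432, 5182 and 3885 with TAF3, replicate 2 being the highest. Its log2 fold change was 0.44 ± 0.073 (adjusted p = 3.63e-06), and 0.26 without TAF3 replicate 2. By DESeq2 the adjusted p for MT-ND6 was 0.0625.

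Of the 12 heavy-strand mRNAs in HCT116, 9 fell and none rose by adjusted p, with a median log2 fold change of -0.23. MT-ND4 of complex I stood at 21927, 23018 and 21405 CPM in control libraries and at 16053, 18575 and 15170 with TAF3, a log2 fold change of -0.41 ± 0.050 (adjusted p = 6.63e-09). Its neighbour in complex I, MT-ND5, changed by -0.39 ± 0.053 on the log2 scale (adjusted p = 7.07e-08). The complex IV subunits MT-CO1, MT-CO2 and MT-CO3 changed by -0.20, -0.29 and -0.36 on the log2 scale. MT-ATP6 of complex V changed by -0.31 and MT-CYB, the cytochrome b of complex III, by -0.16. Every TAF3 library lay below every control library for these 7 genes. MT-ND1 and MT-ND2, the genes next after the rRNAs, gave log2 fold changes of 0.060 ± 0.048 (adjusted p = 0.3575) and 0.035 ± 0.053 (adjusted p = 0.66), and their groups overlapped.

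Among the HCT116 tRNAs, MT-TE stood at 4.61, 4.04 and 5.62 CPM in control libraries and at 8.48, 10.7 and 9.31 with TAF3, a log2 fold change of 1.00 ± 0.16 (adjusted p = 2.405e-06). MT-TL1, the leucine tRNA next to MT-RNR2, stood at 8.37, 9.47 and 9.89 CPM and at 16.2, 17.6 and 14.5, a log2 fold change of 0.80 ± 0.12 (adjusted p = 9.335e-07). These tRNAs were higher in every TAF3 library. MT-TV, the valine tRNA between the rRNAs, was called on 28 to 63 counts per library (log2 fold change 0.77 ± 0.24) and MT-TN, the asparagine tRNA, on 3 to 16 counts (1.82 ± 0.60 on the log2 scale). The fifth call, MT-TH, the histidine tRNA, rested on 22 counts in TAF3 replicate 2, with 0 counts in the other 5 libraries. Without control replicate 1 the count of calls was 3 and without TAF3 replicate 2 it was 2. MT-TA went the other way, from 47.5, 46.6 and 44.9 CPM to 29.0, 31.9 and 37.1, a log2 fold change of -0.51 ± 0.082 (adjusted p = 2.81e-06).

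In NIH3T3, the well-counted mRNAs of both strands fell with TAF3 while mt-Rnr1 did not pass the test. Of 20 members tested, 2 were called higher and 1 lower, against 10.7% and 0.375% of all 19220 genes, 11.1% in all. By adjusted p alone 2 rose and 9 fell, where 13.8% and 9.79% of all genes did so, 23.6% in all. The median log2 fold change of the tested members was -0.28, against 0.020 over all genes. The 17 members under the filter were 16 tRNAs and mt-Nd3.

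mt-Nd6 stood at 1593, 1739 and 1743 CPM in NIH3T3 control libraries and at 1252, 1200 and 1138 with TAF3, without overlap, a log2 fold change of -0.50 ± 0.054 (adjusted p = 9.31e-08). mt-Nd2 of complex I stood at 2044, 2182 and 2451 CPM and at 1690, 1468 and 1403, a log2 fold change of -0.55 ± 0.065 (adjusted p = 4.97e-07). mt-Cytb stood at 5381, 5495 and 6484 CPM and at 4442, 3943 and 3948, a log2 fold change of -0.49 ± 0.061 (adjusted p = 8.85e-07). All 3 genes were lower in each TAF3 library than in any control library. mt-Nd4, mt-Co1, mt-Nd5 and mt-Nd1 changed by -0.48, -0.30, -0.28 and -0.28 on the log2 scale, so that all 6 heavy-strand mRNAs not repeated whole on chromosome 1 fell. mt-Atp6, which is repeated there, changed by -0.60 (adjusted p = 0.00722), on 206 to 417 counts per library and with overlapping groups. mt-Rnr1 gave a log2 fold change of 0.014 ± 0.058 (adjusted p = 0.90).

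Both NIH3T3 members called higher rested on TAF3 replicate 1. mt-Rnr2 stood at 426, 385 and 425 CPM in control libraries and at 2032, 465 and 364 with TAF3, a log2 fold change of 1.21 ± 0.33 (adjusted p = 0.008445). mt-Atp8 of complex V stood at 1.74, 1.47 and 2.23 CPM and at 25.99, 1.07 and 2.98, a log2 fold change of 2.45 ± 0.62 (adjusted p = 0.00486). Without TAF3 replicate 1 the log2 fold changes were 0.0087 (adjusted p = 0.958) for mt-Rnr2 and 0.17 (adjusted p = 0.861) for mt-Atp8. mt-Nd4l, called lower, held 14 to 76 counts per library, with a log2 fold change of -1.24 ± 0.40 (adjusted p = 0.0245), and it is one of the genes repeated on chromosome 1.

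In Neuro-2a, edgeR's quasi-likelihood test called 0 of 22 members, where 1.01% of all 17006 genes were called higher and 0.0235% lower, 1.03% in all. None passed by adjusted p alone, where 1.08% of all genes rose and 0.165% fell, 1.24% in all. At an unadjusted p under 0.05 there were 5 members, 1 higher and 4 lower, and the smallest adjusted p was 0.154. DESeq2 also called 0, with 7 at an unadjusted p under 0.05. The median log2 fold change of the tested members was -0.15, against 0.031 over all genes.

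TAF3 replicate 1 of Neuro-2a stood apart for many members. mt-Nd6 stood at 2421, 2366 and 2211 CPM in control libraries and at 4220, 1999 and 1623 with TAF3, replicate 1 being the high one, for a log2 fold change of 0.16 ± 0.28 (adjusted p = 0.82). mt-Nd4 stood at 2028, 1773 and 1799 CPM and at 672, 1595 and 1668, replicate 1 being the low one (log2 fold change -0.51 ± 0.27, adjusted p = 0.387). In that library mt-Rnr2 was high, at 4315 CPM against 2398 to 2854 in the controls, and mt-Co1 low, at 2388 against 4767 to 4949. Fitted without it, 6 members were lower by adjusted p and none higher. The share of all genes that passed in that fit was not computed, so this count has no background to set it against. mt-Nd6 then gave a log2 fold change of -0.36 (adjusted p = 4.91e-05), mt-Nd2 -0.27, mt-Rnr1 -0.20, mt-Cytb -0.19, mt-Nd4 -0.19 and mt-Nd5 -0.15, none of them past the fold minimum. mt-Rnr1 stood at 15311, 15531 and 14574 CPM in control libraries and at 9510, 13103 and 13220 with TAF3, so every TAF3 library was lower (log2 fold change -0.34 ± 0.12, adjusted p = 0.214, in the fit of all 6 libraries). mt-Nd1, mt-Co1, mt-Cytb and mt-Atp6 gave -0.15, -0.30, -0.34 and -0.65 in that fit, with adjusted p from 0.243 to 0.629.

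NIH3T3 and Neuro-2a were compared by an interaction term in 1 fit of their 12 libraries (the TAF3 log2 fold change in Neuro-2a minus that in NIH3T3). edgeR's quasi-likelihood test called 0 of 21 members, where 0.718% of 19509 genes were called higher and 2.33% lower, 3.05% in all, and 0.902% and 2.48% passed by adjusted p alone, 3.38% in all, with 2 members at an unadjusted p under 0.05 and a smallest adjusted p of 0.29. DESeq2 called 0 as well, with 2 at an unadjusted p under 0.05. The interaction was -0.37 ± 0.16 for mt-Rnr1 and 0.65 ± 0.31 for mt-Nd6 on the log2 scale.

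In HEK293T cells with CBX7, 5 of the 7 light-strand members tested fell past the fold minimum, and 6 of 12 heavy-strand mRNAs fell by less. Of 26 members tested 0 were called higher and 7 lower, against 4.17% and 3.48% of all 18204 genes, 7.66% in all. Of the 7, MT-ND6, MT-TQ, MT-TA, MT-TE and MT-TP lie on the light strand, where 7 members were tested, and MT-TT and MT-TS2 on the heavy strand, where 19 were. By adjusted p alone 14 members fell and none rose, where 15.4% of all genes fell and 13.8% rose, 29.2% in all. The median log2 fold change was -0.96 over the 7 light-strand members, -0.21 over the 19 heavy-strand members and -0.012 over all genes.

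MT-ND6 stood at 1683, 1614 and 1682 CPM in control libraries and at 925, 856 and 780.4 with CBX7, with no overlap, a log2 fold change of -0.96 ± 0.075 (adjusted p = 1.15e-06). MT-TQ stood at 10.9, 11.5 and 12.8 CPM and at 4.56, 4.07 and 4.16, a log2 fold change of -1.47 ± 0.16 (adjusted p = 1.28e-05). MT-TA stood at 43.5, 56.3 and 44.6 CPM and at 16.9, 20.1 and 15.1, a log2 fold change of -1.47 ± 0.13 (adjusted p = 1.68e-06). Each of these light-strand RNAs, whose sequences are given above, was lower in every CBX7 library. MT-TP stood at 26.1, 19.5 and 22.4 CPM and at 11.9, 7.86 and 8.70, a log2 fold change of -1.27 ± 0.16 (adjusted p = 3.33e-05). MT-TE, next to MT-ND6, changed by -0.82 ± 0.21 on the log2 scale (adjusted p = 0.00736). On the heavy strand, the threonine tRNA MT-TT was called on 0 to 21 counts per library and the serine tRNA MT-TS2 on 0 to 11.

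None of the heavy-strand mRNAs rose with CBX7. MT-ND4 stood at 2114, 1932 and 2112 CPM in control libraries and at 1548, 1412 and 1466 with CBX7, a log2 fold change of -0.48 ± 0.070 (adjusted p = 0.000135). MT-ND1, MT-ATP6, MT-CO1, MT-CO2 and MT-CO3 changed by -0.31, -0.29, -0.26, -0.24 and -0.21 on the log2 scale. None of these reached the fold minimum, and in each the CBX7 libraries lay below the control libraries. MT-ND2, MT-ND5 and MT-ND4L gave log2 fold changes of 0.018, -0.0059 and 0.016, and MT-CYB gave 0.16 ± 0.081 (adjusted p = 0.167). The rRNAs MT-RNR1 (-0.070 ± 0.094) and MT-RNR2 (-0.15 ± 0.074) did not pass the test, and their groups overlapped.

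With each of the 3 ASOs, MT-ND6 and both rRNAs were lower than with the NC ASO, and the complex IV mRNAs rose or did not pass the test. The comparisons share the NC ASO libraries, whose CPM shift slightly between them because scaling was computed for each comparison. Of 26 members tested, the SETD5-AS1 ASO gave 10 calls, all lower, where 12.9% and 11.5% of all 18544 genes were, 24.4% in all. With the LINC00641 ASO 0 were called higher and 9 lower, against 11% and 11.5% of 18503 genes, 22.5% in all. With the LINC00662 ASO 0 were called higher and 6 lower, against 11.6% and 13.3% of 18562 genes, 24.9% in all, so that the members' share there was near that of all genes. By adjusted p alone 3 rose and 14 fell with SETD5-AS1, 1 and 16 with LINC00641 and 6 and 10 with LINC00662, where 26.9% and 25.8%, 25.2% and 24.4%, and 27.6% and 26.8% of all genes did so (52.7%, 49.7% and 54.4% in all). The median log2 fold changes of the members were -0.68, -0.52 and -0.11, and those of all genes 0.028, 0.0042 and 0.0013.

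MT-ND6 stood at 3390, 3035 and 3785 CPM in the NC ASO libraries and at 1130, 916 and 892 with the SETD5-AS1 ASO, a log2 fold change of -1.80 ± 0.096 (adjusted p = 1.53e-10). Scaled with the LINC00641 libraries, the NC ASO values of MT-ND6 were 3296, 2951 and 3681 CPM, and the 2 LINC00641 ASO libraries gave 1087 and 964, a log2 fold change of -1.69 ± 0.094 (adjusted p = 3.10e-11). With the LINC00662 ASO MT-ND6 stood at 1432, 1320 and 1315 CPM, against 3275, 2930 and 3656, a log2 fold change of -1.28 ± 0.068 (adjusted p = 2.39e-14). All 8 libraries with one of these ASOs lay below all NC ASO libraries. In the control libraries of the CBX7 table the same gene stood at 1614 to 1683 CPM, between the NC ASO level and the level with the other ASOs, but the tables were scaled separately.

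MT-RNR1 stood at 2751, 3123 and 3183 CPM in the NC ASO libraries and at 1142, 986 and 2254 with the SETD5-AS1 ASO, replicate 3 being the highest of the last, for a log2 fold change of -1.05 ± 0.20 (adjusted p = 0.00022). With the LINC00641 and LINC00662 ASOs it changed by -1.37 ± 0.084 (adjusted p = 1.035e-10) and -1.15 ± 0.071 (adjusted p = 3.90e-13) on the log2 scale. MT-RNR2 stood at 12014, 12555 and 13843 CPM and at 6937, 6069 and 7904 with the SETD5-AS1 ASO, a log2 fold change of -0.88 ± 0.084 (adjusted p = 1.21e-07), and it changed by -1.05 and -0.80 with the other two. Both rRNAs were below all NC ASO libraries in every library of the 3 groups. MT-ND2 of complex I stood at 1324, 1403 and 1461 CPM and at 868.3, 667 and 677 with the SETD5-AS1 ASO. Its log2 fold changes were -0.92 ± 0.092, -1.12 ± 0.085 and, under the fold minimum, -0.55 ± 0.064 in the order SETD5-AS1, LINC00641, LINC00662.

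The complex IV mRNAs moved the other way. MT-CO1 stood at 4574, 5001 and 5195 CPM in the NC ASO libraries and at 5891, 5646 and 8056 with the SETD5-AS1 ASO, a log2 fold change of 0.41 ± 0.10 (adjusted p = 0.00275). Its log2 fold change was 0.18 ± 0.074 (adjusted p = 0.0513) with LINC00641 and 0.42 ± 0.056 (adjusted p = 4.89e-07) with LINC00662. MT-CO3 changed by 0.50 ± 0.077, 0.20 ± 0.081 and 0.60 ± 0.062 on the log2 scale, with adjusted p of 2.51e-05, 0.0476 and 5.60e-09. Every library with one of these ASOs exceeded all NC ASO libraries for both genes. MT-CO2 rose with SETD5-AS1 (0.32) and LINC00662 (0.37) and gave 0.13 (adjusted p = 0.171) with LINC00641. MT-ND1 of complex I gave -0.25 (adjusted p = 0.0519), -0.53 (adjusted p = 0.00013) and 0.41 (adjusted p = 8.18e-06), so that it fell with the LINC00641 ASO and rose with the LINC00662 ASO. MT-ND4 and MT-ND5 gave -0.032 and -0.0072 with SETD5-AS1, which turn to 0.11 and 0.13 when libraries are scaled by their totals alone. MT-CYB of complex III gave -0.084 (adjusted p = 0.386), -0.38 and -0.28, and MT-ATP6 fell with all 3 ASOs, by -0.32, -0.36 and -0.19 on the log2 scale.

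MT-TS1, the light-strand serine tRNA, stood at 17.0, 14.4 and 16.03 CPM in the NC ASO libraries and at 2.80, 2.88 and 3.07 with the SETD5-AS1 ASO, a log2 fold change of -2.43 ± 0.16 (adjusted p = 1.24e-09). With the LINC00641 and LINC00662 ASOs MT-TS1 changed by -2.67 ± 0.19 (adjusted p = 6.93e-10) and -1.95 ± 0.16 (adjusted p = 5.99e-11) on the log2 scale. In the CBX7 table MT-TS1 stood at 1.41 to 2.49 CPM in control libraries. MT-TQ stood at 28.8, 23.8 and 32.9 CPM and at 11.0, 10.6 and 6.52 with the SETD5-AS1 ASO, and its log2 fold changes were -1.61 ± 0.16, -1.27 ± 0.15 and -1.36 ± 0.12 in the same order of ASOs. These light-strand tRNAs did not overlap between NC ASO and any other ASO. MT-TP and MT-TE, also of the light strand, differed by ASO: MT-TP fell with SETD5-AS1 (-0.73) and LINC00641 (-0.57) and gave 0.12 (adjusted p = 0.342) with LINC00662, and MT-TE gave -1.05 (adjusted p = 0.000312), -0.59 (adjusted p = 0.0509) and -0.051 (adjusted p = 0.818). MT-TA varied widely in the NC ASO libraries, at 12.01, 37.6 and 20.1 CPM, and passed the test with none of the ASOs. On the heavy strand MT-TL1 was called with SETD5-AS1 (-0.78) and LINC00641 (-0.92), on 18 to 57 counts per library, and gave 0.42 (adjusted p = 0.16) with LINC00662. MT-TV fell with all 3 ASOs (-1.66, -1.72 and -0.77), and the lysine tRNA MT-TK with SETD5-AS1 (-1.99, on 3 to 30 counts per library) and LINC00641 (-3.69, on 2 to 30 counts per library). Whether these log2 fold changes differ between ASOs was not tested.

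**Figure D3:**
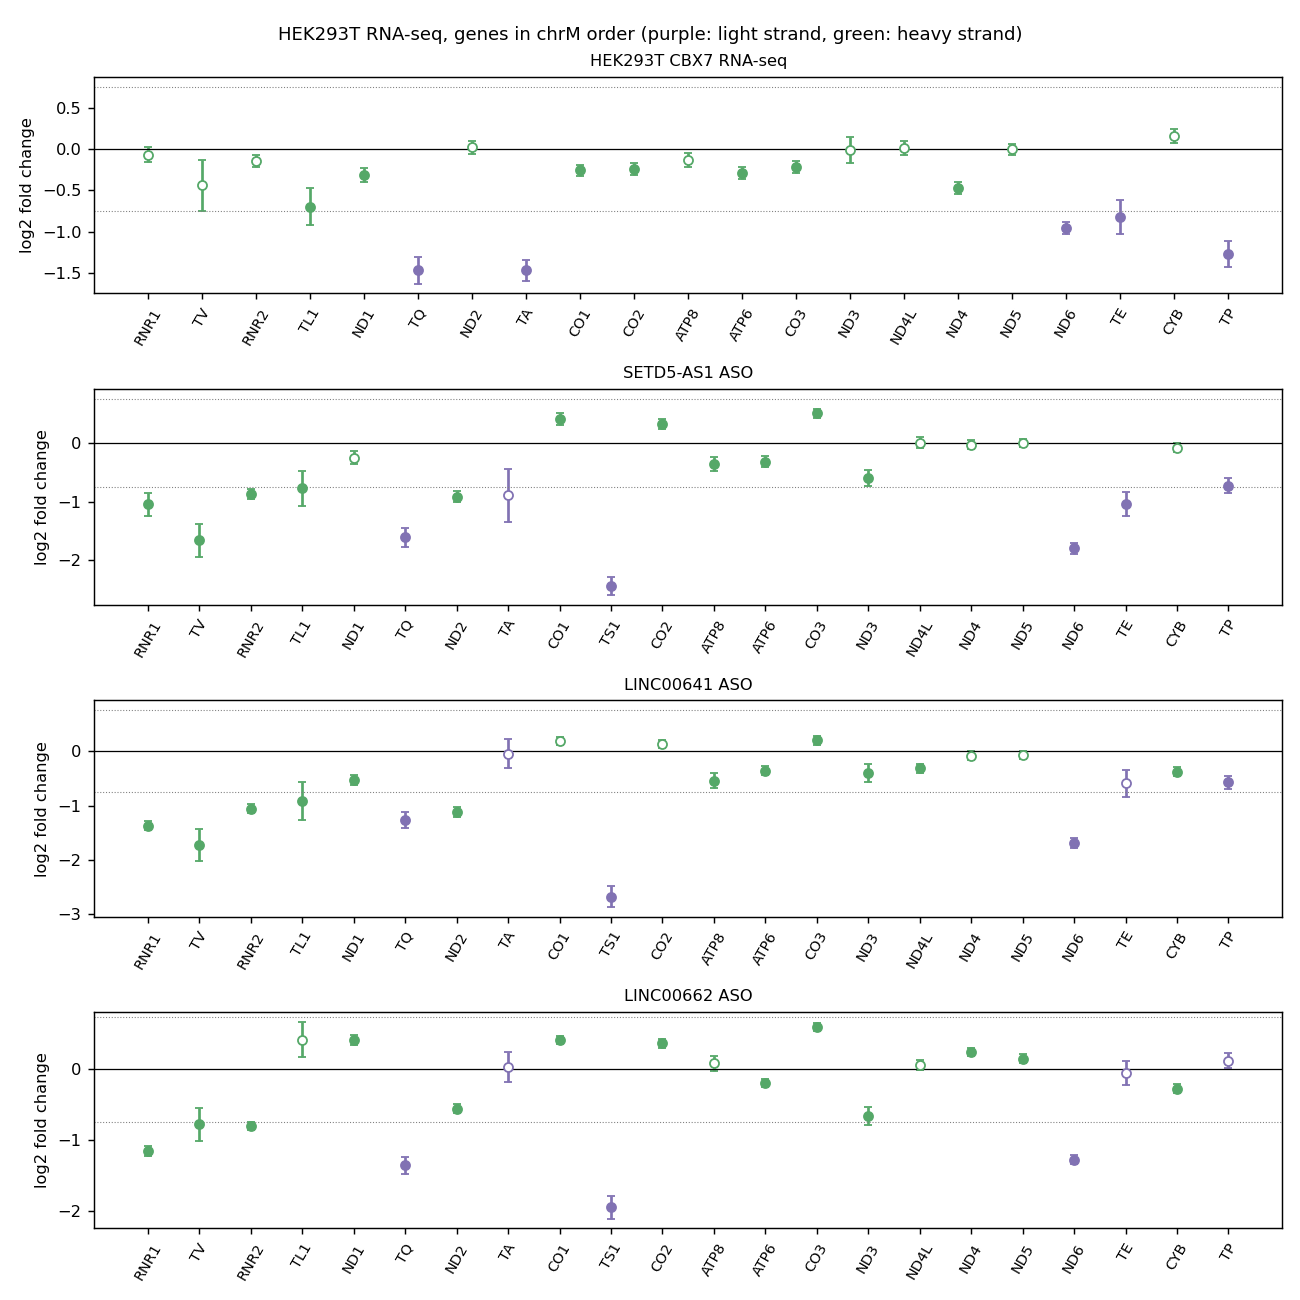
Log2 fold change (vertical axis, bars are the SE) for members with a mean of at least 30 counts, in chrM order (horizontal axis), for CBX7 against control and for each of 3 ASOs against the shared NC ASO in HEK293T RNA-seq, with 3 libraries a group and 2 for LINC00641; purple marks light-strand and green heavy-strand genes, filled points have an adjusted p under 0.05 in edgeR's quasi-likelihood test, and dotted lines mark 0.75 in size. ND6 and TQ lie under the lower dotted line in all 4 panels, and RNR1 and RNR2 lie under it in the 3 ASO panels but not with CBX7.

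The balance of MT-ND6 to the summed heavy-strand mRNAs was taken in each library, which leaves out the scaling between libraries. In HCT116 the log2 ratio was -5.34, -5.42 and -5.16 in control libraries and -4.86, -4.40 and -4.61 with TAF3, a difference of 0.69 with no overlap (exact two-sided permutation test, p = 0.1, the smallest p possible). In NIH3T3 it was -4.21, -4.15 and -4.31 and then -4.40, -4.34 and -4.35, a difference of -0.14 with no overlap (exact permutation p = 0.1). In Neuro-2a it was -2.92, -2.81 and -2.94 and then -1.28, -2.96 and -3.29, a difference of 0.38 (exact permutation p = 1) that becomes -0.24 without TAF3 replicate 1. Whether HCT116 differs from NIH3T3 was not tested, since their annotations differ. The mouse sum also holds few counts of the 6 heavy-strand mRNAs that chromosome 1 repeats. Their median was 9.67 CPM per kilobase in NIH3T3 control libraries, and 10641 for the same genes in HCT116. The ratio is therefore not the same measure in the human and mouse lines.

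In HEK293T the same log2 ratio was -3.42, -3.53 and -3.46 in control libraries and -4.14, -4.17 and -4.29 with CBX7, a difference of -0.73 with no overlap (exact permutation p = 0.1). It was -2.01, -2.30 and -2.02 with the NC ASO, -3.81, -3.97 and -4.22 with SETD5-AS1, -3.67 and -3.75 with LINC00641 and -3.50, -3.61 and -3.64 with LINC00662. The differences were -1.89, -1.60 and -1.47, with exact permutation p = 0.1, 0.2 and 0.1, the smallest that each design allows. MT-ND6 made up 16.9% to 19.8% of the mitochondrial mRNA counts in NC ASO libraries, 5.09% to 8.13% with the other ASOs and 7.95% to 8.53% in the control libraries of the CBX7 table. The NC ASO libraries were thus the ones with the highest share of MT-ND6 in HEK293T.

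**Figure D4:**
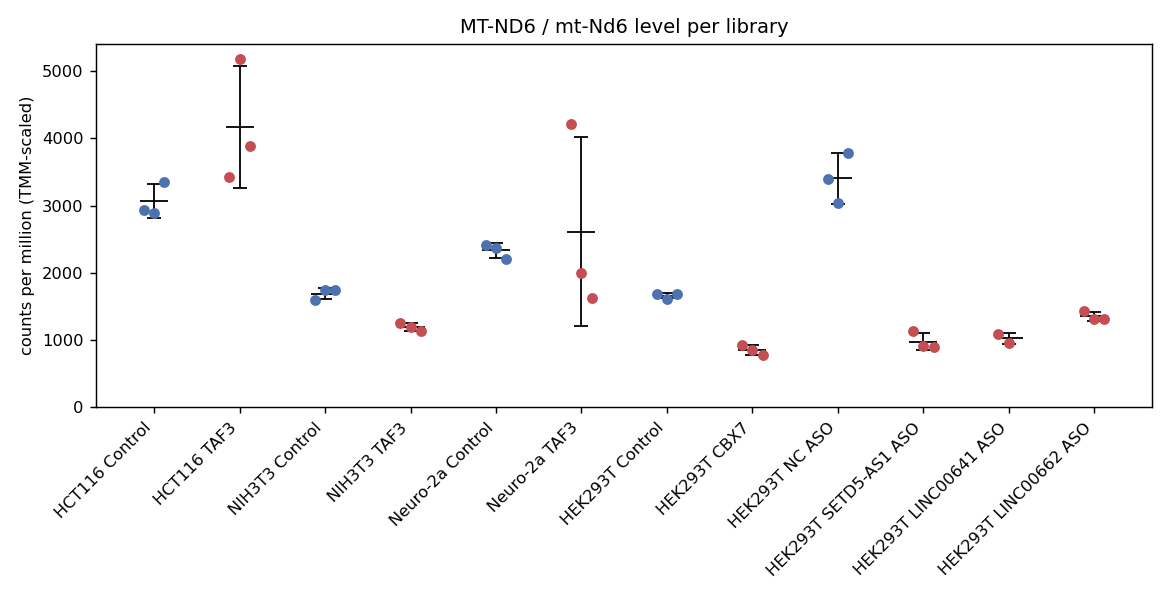
MT-ND6 or mt-Nd6 level in CPM with TMM scaling (vertical axis) in each of 35 libraries in 12 groups (horizontal axis), control groups in blue and treated groups in red; long bars are means and whiskers the SD, and the NC ASO values are those scaled with the SETD5-AS1 libraries. The level lies between 3035 and 3785 CPM with the NC ASO and between 892 and 1432 with the other ASOs, and 1 Neuro-2a TAF3 library lies at 4220 against 1623 and 1999 in the others of its group.

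The log2 ratio of the summed rRNAs to the summed mRNAs was -3.04, -3.02 and -2.94 in HCT116 control libraries and -2.46, -2.70 and -2.48 with TAF3, a difference of 0.46. NIH3T3 gave -1.60, -1.60 and -1.53 and then -1.09, -1.12 and -1.18, a difference of 0.45. Neither line showed overlap (exact permutation p = 0.1 in each). The mouse mRNA sum holds few counts of the 6 mRNAs that chromosome 1 repeats, so it is not the same measure as in human. In Neuro-2a the difference was 0.023 and the groups overlapped (exact permutation p = 0.6), as they did for CBX7 (0.15, exact permutation p = 0.2). With the ASOs the differences were -0.80, -0.82 and -0.88, from -0.21, -0.20 and -0.17 in NC ASO libraries to between -1.15 and -0.79 in the others.

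Across the 12 heavy-strand mRNAs, the log2 fold change with the ASOs ran higher in genes with a higher share of G in their sequence. Spearman's rho across these genes was 0.79 for SETD5-AS1, 0.70 for LINC00641 and 0.52 for LINC00662, and -0.049 for CBX7 and 0.049 for HCT116 TAF3. For TAF3 in mouse, of 11 such genes tested in each line, only those averaging 100 or more counts per library were used. Spearman's rho was 0.64 over 8 genes in NIH3T3 and 0.61 over 7 in Neuro-2a. Among them are mt-Atp6 in both lines and mt-Co2 in NIH3T3, which chromosome 1 repeats and whose levels are uncertain. The genes are not independent replicates, since they come from the same long RNA and the same libraries, and the 3 ASO comparisons share controls, so these are descriptions. MT-ND6, with the most G, is not among these 12 genes and had the lowest log2 fold change of all 13 mRNAs in each ASO comparison. With position along chrM the correlations across these genes ran from -0.45 (HCT116 TAF3) to 0.36 (CBX7).

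The nuclear partners of these genes were read from fixed lists. In HCT116, 14 of 32 tested nuclear subunits of complex I, 7 of 9 of complex IV and 14 of 16 of complex V rose by adjusted p, none of them past the fold minimum, and none fell, where 17.9% of all 18731 genes rose. The medians of complexes I to V lay between 0.18 and 0.30 on the log2 scale, against -0.0067 over all genes. MRPS18C, a protein of the small mitochondrial ribosome subunit, was called higher in HCT116 (0.85 ± 0.085, adjusted p = 7.46e-11) and with CBX7 (0.79 ± 0.19, adjusted p = 0.00534). In NIH3T3 1 of 35 complex I subunits was called higher, with under 100 counts per library on average. Of 17 complex V subunits 1 was, Atp5k (1.80 ± 0.38), whose TAF3 libraries varied widely (22.5 ± 22.1 CPM, SD, n = 3). Both shares lie below the 10.7% of all 19220 genes called higher there. In Neuro-2a the medians of all lists lay between 0.057 and 0.14, and no list member passed by adjusted p.

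With the ASOs, the nuclear genes for mitochondrial RNA synthesis and stability held calls in both directions. LRPPRC, which stabilizes heavy-strand mRNAs, stood at 59.6 ± 7.36 CPM with the NC ASO and at 261 ± 17.8 with the SETD5-AS1 ASO (SD, n = 3), a log2 fold change of 2.13 ± 0.095 (adjusted p = 2.11e-11), and its log2 fold changes were 1.59 and 2.19 with LINC00641 and LINC00662. C10orf2, the Twinkle helicase of mitochondrial DNA replication, changed by -1.97, -2.08 and -1.68 on the log2 scale. TFB2M, the factor that opens mitochondrial promoters with POLRMT, changed by -1.47, -1.43 and -1.28. SSBP1, which coats single-stranded mitochondrial DNA, was called higher with SETD5-AS1 (0.97) and LINC00641 (0.87). Of 32 tested genes of this list, 2, 2 and 1 were called higher and 8, 8 and 6 lower, where 12.9%, 11% and 11.6% of all genes were called higher and 11.5%, 11.5% and 13.3% lower, with medians of -0.30, -0.30 and -0.18. Among nuclear complex IV subunits, 2 of 9 were called higher with each ASO and 0 lower. They were COX5A, whose NC ASO libraries varied widely (105 ± 78.9 CPM, n = 3), and COX7C. Complex I held calls both ways, with NDUFS4 higher (1.27 and 1.09) and NDUFS3 lower (-1.19 and -0.97) with SETD5-AS1 and LINC00641, and NDUFB11 lower with each ASO (-0.84, -0.82 and -0.76). ATP5D of complex V was called higher with SETD5-AS1 (1.35) and LINC00662 (1.47). MRPL44 of the large mitochondrial ribosome subunit was lower with all 3 ASOs (-1.59, -1.50 and -1.45).

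Of 175 annotated nuclear pseudogenes of chrM genes in the human tables, 3 to 6 passed the filter on low counts in a comparison. MTND4P12, a pseudogene of MT-ND4, changed by -0.49 ± 0.075 in HCT116 and by -0.51 ± 0.13 with CBX7 on the log2 scale, where MT-ND4 itself changed by -0.41 and -0.48. Whether its reads stem from MT-ND4 was not tested.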

How the data were processed

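The authors deposited raw read counts per gene as 1 table per experiment, with chromosome, start, end, strand and length beside each gene. The submitters' processing notes list fastp 0.23.1, FastQC 0.11.8, HISAT2 2.1.0, featureCounts 2.0.1 and DESeq2 1.34.0, with hg19 and mm10 GENCODE annotation. RNA was selected for poly(A) tails and built into libraries by a Smart-seq protocol. Strand setting and treatment of multiply mapped reads were not given in the sources used here.

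Groups came from sample titles. The members and gene lists were chosen with earlier results of these data known. Genes with a summed count over 3 per library (18 for 6 libraries, 15 for 5, 36 for 12) were tested with edgeR 4.0.16 (R 4.3.3), TMM scaling and the quasi-likelihood test, with Benjamini-Hochberg adjustment over all genes tested. All adjusted p-values are from that test unless another tool is named. Calls needed an adjusted p under 0.05 together with a change of 0.75 or more, up or down, on the log2 scale. Shares and ratios were compared by exact two-sided permutation tests. Scripts were tested on simulated counts. CPM per kilobase used the deposited gene length. Nuclear copies were found with blastn 2.17.0 on hg19 and mm10. The 13 mRNAs and 2 rRNAs could be named throughout, and a tRNA where it was called or had a mean of at least 100 counts; of each nuclear list, up to 2 rises and 2 falls with such a mean were named per comparison. Values of MT-TE, MT-TS1 and MT-TL1 in comparisons where they did not meet that rule were added after they were seen.

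Libraries held 8258859 to 17558305 counts. Deviations of same-numbered libraries correlated positively in the CBX7 table (0.190, 0.346 and 0.136). CBX7 replicate 1 correlated as much with control replicate 3 (0.204), so whether the numbers pair libraries is not settled. In Neuro-2a the same-numbered values were positive but small (0.067, 0.063 and 0.068). In the other comparisons they were not all positive. The main tests used no pairing. One further HEK293T Chrom-seq table, and the 2 comparisons planned on it, were not analysed here.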

Additional observations from a re-analysis of the deposited data

Results flagged for a closer look

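For the genes below, every TAF3 library lay above every control library in one line and below in another, though not all of these differences passed the test in every fit. MT-ND6 gave a log2 fold change of 0.44 in HCT116 and mt-Nd6 gave -0.50 in NIH3T3. The adjusted p of MT-ND6 in HCT116 was 0.0625 by DESeq2, and its log2 fold change was 0.26 without TAF3 replicate 2. MT-RNR1 gave 0.64 in HCT116 and mt-Rnr1 gave -0.34 in Neuro-2a, where the adjusted p in edgeR was 0.214. The log2 ratio of MT-ND6 to the summed heavy-strand mRNAs differed by 0.69 in HCT116 and the same ratio in mouse by -0.14 in NIH3T3. These differences between lines were not tested, because the human and mouse tables have different genes. The mouse ratio also holds few counts of the 6 mRNAs that chromosome 1 repeats, so it is not the same measure as in human.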

How the results depend on the processing

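No member past the threshold changed sign under the alternatives run. Among values not past one, the Neuro-2a log2 ratios without TAF3 replicate 1 turned from 0.38 to -0.24 (mt-Nd6 to heavy-strand mRNA; the log2 fold change of mt-Nd6 itself from 0.16 to -0.36, adjusted p 4.91e-05 in edgeR) and from 0.023 to -0.0043 (rRNA to mRNA, also negative without control replicate 1). With no fold minimum, 20 members passed in HCT116, 11 in NIH3T3, 14 with CBX7 and 17, 17 and 16 with the SETD5-AS1, LINC00641 and LINC00662 ASOs. DESeq2 called 1 member in NIH3T3, and with no filter the interaction held 2 calls. Leaving out 1 library gave 2 to 5 calls in HCT116, 2 to 3 in NIH3T3, 0 in Neuro-2a, 6 to 7 with CBX7, 9 to 12, 8 to 11 and 5 to 7 with the ASOs, and 0 to 1 in the interaction (1 without Neuro-2a TAF3 replicate 3). Without the rRNA genes the log2 ratio of the chrM share was -0.31 in NIH3T3, -0.26 with CBX7 and 0.0027, -0.23 and 0.040 with the ASOs, the first and last of these turned from -0.30 and -0.29. With MT-RNR2 as the only rRNA, the rRNA to mRNA log2 ratio differed between groups by 1.13 in NIH3T3, 0.51 in Neuro-2a and -0.77 with LINC00641. Both mouse differences rest largely on TAF3 replicate 1. Its log2 ratio was -3.77 in NIH3T3, against -5.78 and -6.06 in TAF3 replicates 2 and 3. In Neuro-2a it was -1.74, against -2.66 and -2.74. Replicates 2 and 3 still lay above the highest control library, at -6.19 in NIH3T3 and -2.801 in Neuro-2a. The cause of these differences was not tested. With a replicate block the calls numbered 5, 2, 0, 7, 9, 8, 6 and 0 in the order HCT116, NIH3T3, Neuro-2a, CBX7, SETD5-AS1, LINC00641, LINC00662 and interaction, and 5 of 95 single member results lost the threshold. Over all alternatives, 94 of 1265 single member values, in 31 results, did so. Shares of all genes called were not computed for DESeq2, without the filter, without 1 library or with the block. The counts of calls in those fits are therefore descriptions only. Scaling by library totals alone shifted the all-gene median for SETD5-AS1 from 0.028 to 0.17 (log2).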
